A study of Mus musculus with 3 samples.

Results

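The cells described here were lymph node (LN) stromal cells of 1 library that carried RNA of both Thbs1 and Fst. They were chosen by 3 steps on their own counts. A barcode was retained if it had at least 200 genes, at most 10% of its unique molecular identifiers (UMIs) from mitochondrial genes, and no count of 13 genes of contaminating cells (Ptprc, Cd79a, Cd79b, Cd3d and Trac of leukocytes, Hba-a1 and Hba-a2 of red cells, Cldn5, Egfl7, Ly6c1 and Lyve1 of endothelium, Krt18 of epithelium and S100b). It then needed at least 1 UMI of Thbs1 and at least 1 of Fst. Finally, it had to lack any UMI of Cr2, Madcam1 and Tnfsf11, the genes used to mark follicular dendritic cells (FDCs), marginal reticular cells and interfollicular reticular cells. This gate held 51 of the 391 retained cells of the library, out of 1029 barcodes, and the other 340 retained cells were the comparison. The whole series held 2243 retained cells among 5486 barcodes.

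All 3 libraries came from C57BL/6 mice carrying CXCL13-TdTomato, a transgene with Cre and TdTomato under the Cxcl13 promoter, so that the fluorescence marks cells with present or past Cxcl13 promoter activity. Live PDPN+ TdTomato+ cells without CD31 and CD45 were sorted from digested LNs. The pair of 2-IC libraries came from mice injected with antigen immune complexes (ICs) 2 times, 7 days and 24 h before analysis, and the 1-IC library from mice injected 1 time, 24 h before. All mice had thus received antigen-IC and no library came from untreated mice. LNs of several mice were pooled, the labels used here give no sex, age or mouse for a cell, and which mice entered which library was not clear from the methods. The short sample names of the 2-IC libraries differ from their titles in the times they give, and the titles were followed. The cells described here belong to 2-IC replicate 2. It held 12788101 UMIs, 2-IC replicate 1 held 20607903 in 3790 barcodes, and 1-IC held 3766526 in 667 barcodes.

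Thbs1 encodes thrombospondin 1, a secreted matricellular protein that binds matrix, integrins and growth factors. Fst encodes follistatin, a secreted protein that binds and neutralizes activins. Reticular cells of the LN are fibroblasts that build the conduit network, make the chemokines that position lymphocytes and monocytes, and change their output when antigen or inflammation reaches the node. CXCL13 attracts B cells to follicles, CCL19 and CCL21 hold T cells in the T zone, and CCL2 and CCL7 attract monocytes. TWEAK, a cytokine of the TNF family, signals through the receptor encoded by Tnfrsf12a, and fibronectin is bound by the integrin that contains the product of Itga5.

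The gate cells described here came from 1 library, and their values were given no test over samples. Counts of each gene were summed over the 51 cells and over the 340 cells, divided by the summed UMIs (944531 and 4725231) and scaled to CPM, the count of a gene in a fixed number of UMIs that is the same for every group. The log2 ratio of these values is followed by its exact 95% interval, from the Clopper-Pearson method, which covers counting error only and neither the spread between cells nor between mice. Cells of 1 library are not replicates. The barcode sequences of 7 gate cells also occurred in 2-IC replicate 1, where they held 519 to 673 UMIs against 23736 to 37031 here; 76 barcodes were shared between the 2-IC libraries in all. Without shared barcodes the gate held 44 cells, 11.9% of the retained cells left.

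The gate genes are given as description, since they chose the cells. Thbs1 (chromosome 2, 118111876 to 118127133, plus strand, GRCm38) had between 1 and 163 UMIs in a gate cell with a median of 20, and 3 cells had exactly 1. Fst (chromosome 13, 114452290 to 114458951, minus strand) had between 1 and 45 UMIs with a median of 4, and 15 cells had exactly 1. Summed levels were 2063 against 539 CPM for Thbs1 and 462 against 103 CPM for Fst. At the edge of the gate stood 16 cells with exactly 1 UMI of either gene and 35 with at least 2 of each. Just outside it stood 61 cells with Thbs1 and no Fst, 29 with Fst and no Thbs1, and 64 with neither, all without Cr2, Madcam1 and Tnfsf11. A further 50 cells had both genes along with Cr2, Madcam1 or Tnfsf11. Summed Tnfrsf12a was 211 CPM in the 16 cells at the edge, 258 CPM in the 35 cells inside it, 73.1 CPM in the cells with Thbs1 alone, 39.3 CPM in those with Fst alone and 191 CPM in the 50 cells that also carried Cr2, Madcam1 or Tnfsf11. Those 50 cells were near the gate cells in Tnfrsf12a but not in every gene: Ccl7 was at 362 CPM in them, against 308 CPM with Thbs1 alone and 698 CPM in the 35 cells, and Cxcl13 at 6248 CPM against 1690 and 1862 CPM. In the same 50 cells Ccl2 was at 977 CPM, Itga5 at 177 CPM and Timp1 at 141 CPM, against 1614, 195 and 186 CPM in all 51 gate cells, and 36 of the 50 (72%) had Y-linked RNA and no Xist.

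Depth set part of the gate. The 51 cells had a median of 18001 UMIs (617 to 37031) and 4311 genes, and the other 340 had 14250.5 UMIs and 3895.5 genes. The median mitochondrial share was 2.73% against 2.84%, and Malat1, a nuclear RNA, took 5.74% against 5.95%. The cells with neither gate gene were shallow, with a median of 2865 UMIs. When each cell was reduced at random to 2000 UMIs, 32 of 346 cells (9.25%, exact 95% interval 6.41 to 12.8%) met the gate; 23 of these were gate cells at full depth, and the others met it only after UMIs of Cr2, Madcam1 or Tnfsf11 had been lost. Of the gate cells, 1 had under 2000 UMIs and was left out of values at equal depth.

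The gate was far more populated in this library than in the others. It held 13.04% of retained cells (exact interval 9.87 to 16.8%), against 33 of 1526 (2.16%, 1.49 to 3.02%) in 2-IC replicate 1 and 1 of 326 (0.307%, 0.00777 to 1.70%) in 1-IC. Retained cells of 2-IC replicate 1 were shallower, with 5583 UMIs as the median of its gate cells. At 2000 UMIs per cell the shares were 9.25% in 2-IC replicate 2, 0.612% in 2-IC replicate 1 and 0.369% in 1-IC. The 2-IC libraries, which carry the same treatment in their titles, therefore stood further apart than 2-IC replicate 1 and 1-IC did, and no test of treatment was made.

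The cells had the RNA of fibroblastic reticular cells. Decorin (Dcn) stood at 9053 CPM against 8773 CPM in the other cells, Col1a2 at 2500 against 1907, and Cxcl12, a chemokine for B cells and many other leukocytes, at 5819 against 6535. Pdpn, the protein used for sorting, had a log2 ratio of 1.00, just short of the 2-fold limit. Of 13 genes listed for follicular reticular cells, all at 50 CPM or more in either group, none was 2-fold higher and 1, Cxcl13, was 2-fold lower. Of 7 listed FDC genes, 2 reached 50 CPM, Clu at 4350 against 5045 CPM and Sox9 at 227 against 114 CPM, neither past 2-fold, while Fcer2a and Fcgr2b, in addition to Cr2 that the gate required to be absent, were at 0.

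Among 3453 genes at 50 CPM or more in either group, the gate genes left out, 116 (3.36%) were at least 2-fold higher in the gate cells and 87 (2.52%) at least 2-fold lower. The median log2 ratio of all of them was 0.04. Of the 116, only 29 reached 200 CPM in either group, and at low levels 1 cell could weigh on a sum. Without the cell that held most of a gene's counts, 75 of the 116 were still 2-fold higher and 115 were above 0.

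**Figure D1:**
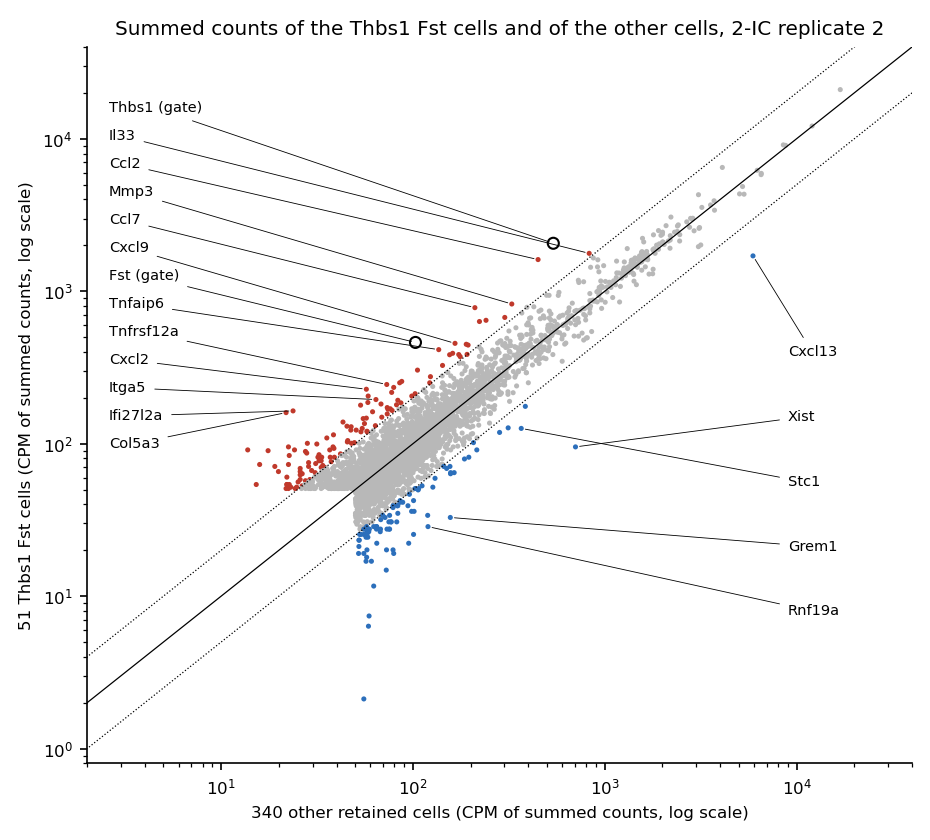
Summed CPM of each of 3453 genes in the 51 Thbs1 Fst cells (vertical, log scale) against the 340 other retained cells (horizontal, log scale) of 2-IC replicate 2, with red and blue for genes at least 2-fold higher and lower, dotted lines at 2-fold, and open circles for the gate genes. The chemokines Ccl2 and Ccl7 lie above the upper line and Cxcl13, at 1706 against 5929 CPM, below the lower one, in part because the gate excludes cells with Cr2, Madcam1 or Tnfsf11.

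Secreted chemokines and cytokines were the group with most genes past 2-fold. Of 21 listed, 13 reached 50 CPM; 8 of these 13 were at least 2-fold higher, none was 2-fold lower and their median log2 ratio was 1.18, beside 3.36% higher and a median of 0.04 for all genes compared. The 8 were Ccl2, Ccl7, Cxcl2, Cxcl9, Cxcl10, Il33, Lif and Il6. The list did not hold Cxcl13, Cxcl12 and Ccl21a, chemokine genes counted with reticular cell types. Of these, Cxcl13 was at least 2-fold lower, and Cxcl12 and Ccl21a were within 2-fold. Ccl2 (chromosome 11, 82035571 to 82037453, plus strand) ranged from 0 to 10770 CPM in single gate cells with a median of 383, and in the other cells from 0 to 13922 with a median of 0. The ranges overlapped, and 10 of 51 gate cells had no Ccl2 UMI against 204 of 340 others. Summed Ccl2 was 1614 against 449 CPM (log2 ratio 1.85, 1.75 to 1.94). Its neighbour on the chromosome Ccl7 (82045712 to 82047525) was at 780 against 210 CPM (1.89, 1.75 to 2.03). Cxcl2, a neutrophil chemokine, was at 228 against 57.1 CPM (1.99, 1.73 to 2.26), although 37 of 51 gate cells had none, and its log2 ratio was 0.67 with Cr2, Madcam1 and Tnfsf11 not required at 0. Il33, an alarmin of stromal nuclei, was at 1772 against 830 CPM (1.10, 1.01 to 1.18), and within 2-fold (0.87) among cells with Y-linked RNA.

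The remaining chemokines and cytokines past the limit depended more on few cells. Cxcl9 and Cxcl10, ligands of CXCR3 that interferon induces, were at 455 against 166 CPM (1.46) and 444 against 194 CPM (1.19), and without 1 cell for each the log2 ratios were 0.87 and 0.41. Il6 had a log2 ratio of 1.18, and 0.21 without the cell that held most of its counts. Lif, a cytokine of the IL-6 family, was at 70.9 against 19.0 CPM (1.90, 1.42 to 2.37) and kept 1.69 without its leading cell. Cxcl1 and Csf1, at log2 ratios of 0.66 and 0.67, were within 2-fold.

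Receptors and adhesion molecules were past 2-fold in few genes, in short lists where 1 gene exceeds the 3.36% of all genes compared. Tnfrsf12a (chromosome 17, 23675445 to 23677468, minus strand) ranged from 0 to 664 CPM in single gate cells with a median of 187, and was undetected in 13 of 51 gate cells and in 253 of 340 others. Its sum was 245 against 73.0 CPM (1.74, 1.497 to 1.99). It was the only one of 6 compared genes of the TNF receptor family past 2-fold; Tnfrsf1a, the main TNF receptor, had a log2 ratio of 0.24 and Ltbr, the lymphotoxin receptor, -0.03. Itga5 (chromosome 15, 103344286 to 103366763, minus strand) ranged from 0 to 1268 CPM with a median of 124 in the gate cells, 15 of which had none, and its sum was 195 against 64.1 CPM (1.60, 1.33 to 1.87). It was the only one of 4 compared integrin genes past 2-fold, and Itgb1, which encodes its partner chain, was at 485 against 413 CPM (0.23). Syndecans, proteoglycans that bind matrix and growth factors, were higher for both listed genes: Sdc4 at 645 against 240 CPM (1.42, 1.28 to 1.57) and Sdc1 at 73.1 against 15.9 CPM (2.20, 1.71 to 2.69).

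At equal depth the shares of cells with a UMI moved the same way. Of 50 gate cells, 34.0% had a UMI of Tnfrsf12a (exact interval 21.2 to 48.8%), against 7.43% of 296 other cells (4.72 to 11.0%). In 78 barcodes with B cell RNA from the same library, a cell type that should lack this gene, it was 2.56% (0.312 to 8.96%), and these had a median of 5868 UMIs before thinning. Itga5 was found in 32.0% of gate cells, 8.11% of other cells and 1.28% of B cell barcodes, and Ccl2 in 58.0%, 20.9% and 2.56%. Without thinning, Tnfrsf12a was found in 74.5% of gate cells and 25.6% of the others.

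**Figure D2:**
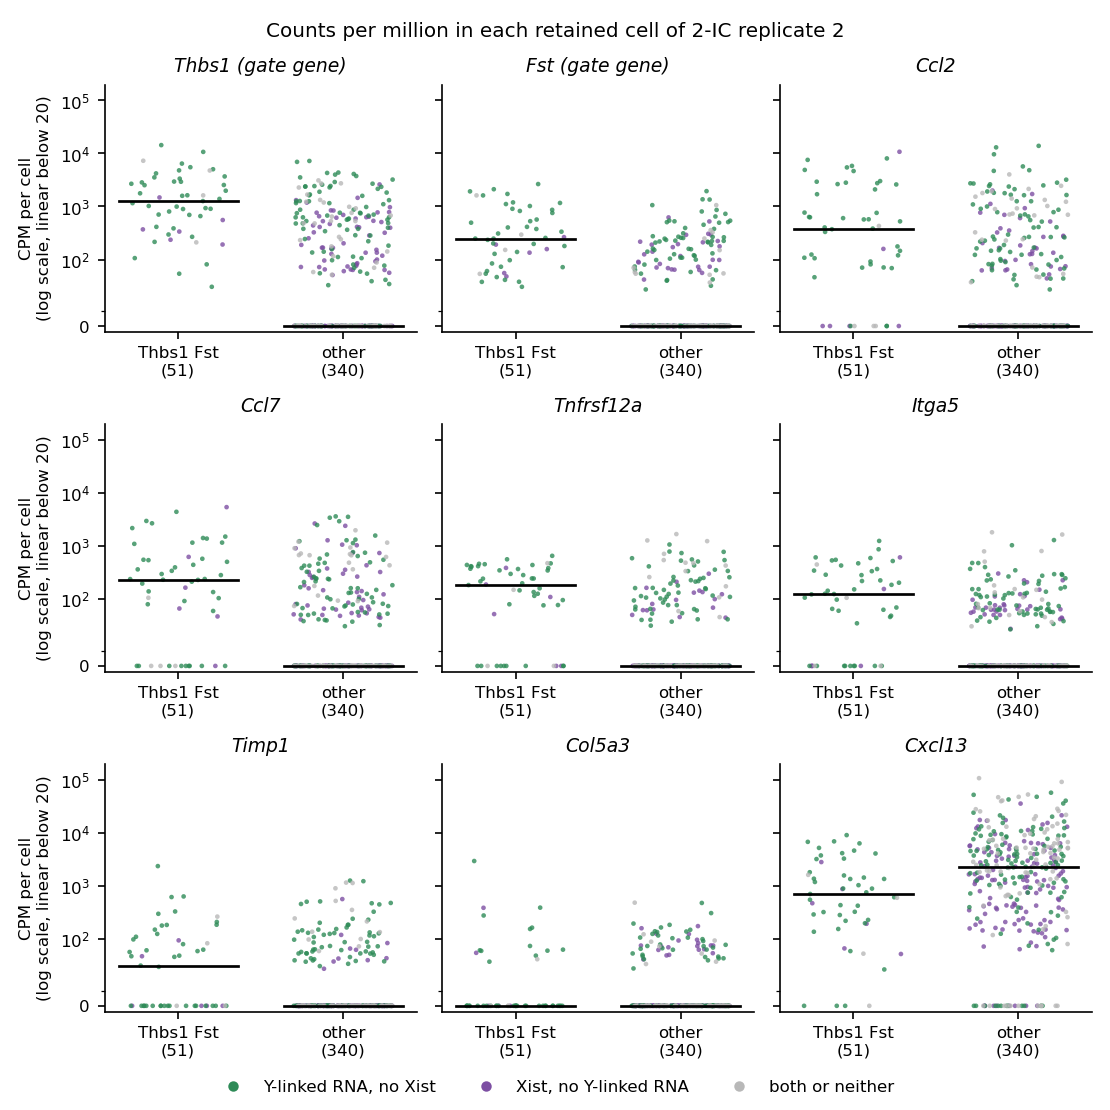
CPM of 9 genes in each retained cell of 2-IC replicate 2 (vertical, log scale, linear below 20), for the 51 Thbs1 Fst cells and the 340 others; points are cells, black lines are medians, and colour gives Xist or Y-linked RNA in the cell. The groups overlap in every gene, Col5a3 has a single gate cell at 2997 CPM, and most gate cells are green.

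Matrix genes were higher for a minority; the counts below stand beside 3.36% higher and 2.52% lower of all genes compared, and in lists this short 1 gene is already above these shares. Of 12 collagen genes compared, 1 was past 2-fold, Col5a3, and their median log2 ratio was 0.53. Col5a3 stood at 160 against 21.8 CPM (2.87, 2.50 to 3.25), but 36 of 51 gate cells had none and 1 cell held 73.5% of the counts; without that cell it was 44.1 CPM and 1.02. The abundant fibrillar collagens Col1a1 and Col1a2 had log2 ratios of 0.50 and 0.39. Of 12 matrix proteases and inhibitors, 3 were past 2-fold. Mmp3 (stromelysin 1) was at 825 against 328 CPM (1.33, 1.21 to 1.46), Mmp19 at 157 against 73.4 CPM (1.09, 0.81 to 1.38), and Timp1, a metalloproteinase inhibitor, at 186 against 58.2 CPM (1.68, 1.40 to 1.96), with 50.6% of its counts in 1 cell and a ratio of 0.72 without it. Mmp14 (-0.09) was within 2-fold. Of 17 genes for fibronectin, laminins and matrix crosslinkers, 3 were higher, the syndecans above and Vcan (versican) at 123 against 50.6 CPM; Fn1, fibronectin itself, was at 940 against 513 CPM (0.88).

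The next lists are likewise read beside 3.36% higher and 2.52% lower. In the activin and BMP group, Fst was set by the gate and its ligand subunit gene Inhba was at 0 UMIs in the gate cells and 4.87 CPM in the others. Of the 10 genes compared, Bmp1, a protease that processes procollagen, was higher (65.6 against 25.8 CPM, 0.91 on the log2 scale without its leading cell), and Grem1 and Id1 were lower. Grem1, a secreted BMP inhibitor of reticular cells at the T-B border, was at 32.8 against 157 CPM (-2.25, -2.82 to -1.74), and Id1, a BMP target, at 19.1 against 79.4 CPM (-2.06, -2.83 to -1.38). At equal depth Grem1 was found in 4 of 50 gate cells and 19.6% of 296 others. Smad3 was the 1 of 11 TGF-beta genes past 2-fold, at 81.5 against 33.4 CPM (1.29, 0.87 to 1.69), but 0.98 within cells with Y-linked RNA, and Tgfbi, a TGF-beta target, was within it. Among 22 actin genes, Zyx (zyxin, of focal adhesions) was higher, with 1.21, Tagln (transgelin) lower, with -1.12, and the median was 0.36. Of 10 compared targets of YAP and TEAD, none was higher and 1, Amotl2, was lower (-1.82).

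Immediate early genes, which tissue digestion also induces, were at 26088 CPM summed in the gate cells and 29682 CPM in the others. Of 21 compared, 3 were past 2-fold, Egr2 (1.66), Fosl1 (1.46) and Fosl2 (1.12), while Fos (-0.30), Jun (-0.14) and Egr1 (-0.14) were within it and the median was -0.11. Of 11 NF-kB genes, none was higher and Bcl3 was lower (-1.26); Nfkb1 was at 0.95 and Nfkbia, the inhibitor it induces, at 0.01. Of 7 interferon response genes, Gbp2 (1.62) and Iigp1 (1.15) were higher and Irf1 (-0.23) was not; Gbp2 was at 0.30 after thinning and 0.97 with 2 UMIs required of each gate gene, and at equal depth it was found in 5 of 50 gate cells and 6.42% of 296 others. Iigp1 was at 0.66 without its leading cell. Outside that list, the interferon-induced genes Ifi211 and Usp18 went opposite ways. Ifi211 was among the 15 highest ratios, at 101 against 28.1 CPM (1.84, 1.44 to 2.23). Usp18, which encodes a protease that removes ISG15, was among the 15 lowest, at 25.4 against 101 CPM (-1.99, -2.64 to -1.40), with -0.99 after thinning, -2.22 within cells with Y-linked RNA and -1.84 against the 154 cells that lack Cr2, Madcam1 and Tnfsf11.

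Lower genes included markers of other reticular cell types. Cxcl13 (chromosome 5, 95956951 to 95961068, plus strand) ranged from 0 to 9230 CPM in gate cells with a median of 716, and from 0 to 109547 with a median of 2266 in the others. Its sum was 1706 against 5929 CPM (-1.80, -1.87 to -1.72). The gate excludes cells with Cr2, Madcam1 or Tnfsf11, which hold much of the Cxcl13, so that part of this difference was set by the rule. The 154 other cells that also lack these 3 genes were shallower, with a median of 11239 UMIs against 18001 in the gate cells. Against them, Cxcl13 was at 1706 against 2775 CPM (-0.70, -0.78 to -0.62), short of 2-fold, and it was at 1690 CPM in the cells with Thbs1 and no Fst. With the 3 genes not required at 0 the log2 ratio was -0.52. It was found in 68.0% of gate cells and 77.7% of the others at equal depth, and in 28.2% of the 78 B cell barcodes of this library, 1 of which had 29 UMIs of 2000; the part of free RNA in these shares was not tested. Of 4 genes of medullary reticular cells, Stc1 (-1.54, -1.82 to -1.27) and Cyp2f2 (-1.28, -1.68 to -0.91) were past 2-fold lower, but with the 3 genes not required at 0 they were at -0.37 and -0.72. Against the 154 cells they were at -1.05 and -1.46. Cyp2f2 was also at -0.45 after thinning, -0.69 with every cell weighted alike and -0.59 with contaminant genes not filtered, and before thinning it was found in 33.3% of gate cells and 28.2% of the others. Inmt was at 457 against 627 CPM (-0.45). At the T-B border, Grem1 was lower while Ccl21a, at 6487 against 4104 CPM (0.66, summed over the IDs of that symbol), and Ccl19 (0.19) were within 2-fold. The transcription factor gene Hes1 (-1.49), Ebf3 (-1.31), the sulfatase gene Sulf1 (-1.34), Lifr (-1.25), which encodes a receptor chain for LIF, and Rnf19a (-2.07) were among the 15 lowest at 100 CPM or more, as were Tsc22d1 (-1.30), Pdcd4 (-1.29) and Zfhx4 (-1.26). Sulf1 was at 0.028 against the cells that also lack Cr2, Madcam1 and Tnfsf11. With contaminant genes not filtered, Hes1 (-0.63), Ebf3 (-0.87), Lifr (-0.49), Tsc22d1 (-0.70) and Zfhx4 (-0.40) were within 2-fold. After thinning, Lifr (-0.75) and Tsc22d1 (-0.73) were too, as was Lifr with every cell weighted alike (-0.66). Before thinning, Lifr was found in 74.5% of gate cells and 76.8% of the others.

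The promoters of the Tnfrsf12a, Itga5 and Timp1 genes are shown because all 3 genes were among the 15 of highest ratio, although their levels did not go together across gate cells (Spearman's rho from -0.21 to 0.19); they are the 250 bases before the RefSeq start in GRCm38.p6, 5′ to 3′ on the gene's strand, with capitals for the letters GGAATG (the TEAD motif, either strand) or TGANTCA (AP-1). The Tnfrsf12a window is chr17:23677450-23677699, minus strand, that of Itga5 is chr15:103366792-103367041, minus strand, and that of Timp1 is chrX:20869916-20870165, plus strand.
Tnfrsf12a: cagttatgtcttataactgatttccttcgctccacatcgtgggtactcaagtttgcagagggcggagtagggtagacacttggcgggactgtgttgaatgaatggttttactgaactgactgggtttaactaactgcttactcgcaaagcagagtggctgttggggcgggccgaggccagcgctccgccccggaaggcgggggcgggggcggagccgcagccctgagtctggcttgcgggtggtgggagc
Itga5: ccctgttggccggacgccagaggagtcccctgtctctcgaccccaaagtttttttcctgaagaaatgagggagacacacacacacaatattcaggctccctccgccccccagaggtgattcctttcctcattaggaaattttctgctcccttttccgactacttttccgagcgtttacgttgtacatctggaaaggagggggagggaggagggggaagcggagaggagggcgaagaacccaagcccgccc
Timp1: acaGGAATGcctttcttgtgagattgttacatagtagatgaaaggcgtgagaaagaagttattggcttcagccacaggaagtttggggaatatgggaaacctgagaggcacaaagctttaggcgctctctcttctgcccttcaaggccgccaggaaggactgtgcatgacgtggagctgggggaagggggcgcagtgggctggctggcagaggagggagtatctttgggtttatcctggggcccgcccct
The windows of Tnfrsf12a and Itga5 held neither motif and that of Timp1 held GGAATG. Of the 15 genes of highest ratio, 11 had windows, 13 in all with 2 each for Medag and Emp1, and Ccl2, Ccl7, Ifi27l2a and Rrs1 had none. Over the 13 windows, TGANTCA occurred in 3, in Emp1, Gbp2 and Tnfaip6, against 6.75% of 32851 promoter windows of this length, GGAATG in 3 against 12.6%, and an NF-kB motif in 6 against 45.8%. With 13 windows these counts were given no test. A match is a description of the letters and not a bound site.

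RNA from the sex chromosomes divided the cells. Xist is transcribed from the inactive X chromosome of female cells, and Ddx3y, Uty, Kdm5d and Eif2s3y lie on the Y chromosome. Of the gate cells, 41 had Y-linked RNA and no Xist (80.4%), 6 had Xist and no Y-linked RNA, and 4 had neither. Of the other 340 cells, 124 had Y-linked RNA alone, 129 Xist alone, 18 both and 69 neither. Xist accordingly gave the lowest of the ratios at 100 CPM or more, 95.3 against 704 CPM (-2.88, -3.20 to -2.58). The gate held 24.8% of the 165 cells with Y-linked RNA alone (exact interval 18.5 to 32.2%) and 4.44% of the 135 with Xist alone (1.65 to 9.42%), at median depths of 17301 and 14342 UMIs. In 2-IC replicate 1 the shares were 2.37% of 338 and 2.55% of 667 cells. In 1-IC the gate held 1 of 16 cells with Y-linked RNA alone and 0 of 232 with Xist alone, too few to compare. A higher share in cells with Y-linked RNA was seen in 2-IC replicate 2 and not in 2-IC replicate 1, and sex, the mouse a cell came from and how that mouse was handled cannot be told apart.

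**Figure D3:**
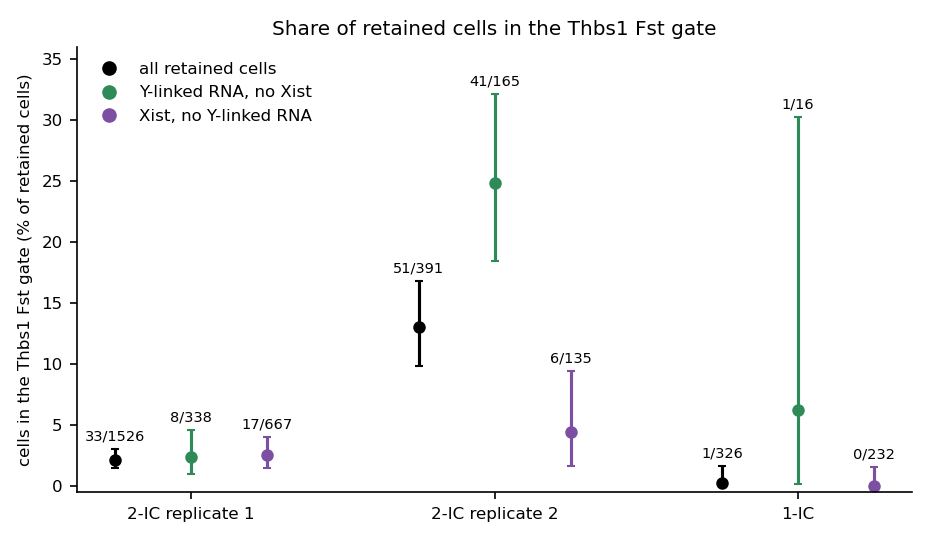
Share of retained cells in the Thbs1 Fst gate (vertical, percent) in each library, for all cells and for cells with Y-linked RNA alone or Xist alone; bars are exact 95% binomial intervals and numbers give gate cells over all cells. In 2-IC replicate 2 the share is 24.8% in cells with Y-linked RNA and 4.44% in cells with Xist, and in 2-IC replicate 1 both are near 2.5%.

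The difference reached beyond the gate genes. Over all retained cells of 2-IC replicate 2, cells with Y-linked RNA alone had 149 CPM of Tnfrsf12a and those with Xist alone 20.8 CPM, and Timp1 was at 122 against 8.32 CPM. In 2-IC replicate 1 the corresponding values were 12.3 against 15.3 CPM for Tnfrsf12a and 15.8 against 13.1 CPM for Timp1. Other genes did differ there: Ccl2 was at 509 against 219 CPM, Ccl7 at 462 against 164 CPM and Mmp3 at 306 against 112 CPM. Cxcl2 went the other way, at 75.8 against 109 CPM. The comparison was therefore repeated within the cells of 2-IC replicate 2 with Y-linked RNA alone, 41 in the gate with a median of 16980 UMIs and 124 outside it with 17454.5. Of 3456 genes, 81 (2.34%) were at least 2-fold higher and 71 (2.05%) at least 2-fold lower. Of the 116 genes higher in the comparison of all cells, 115 were also above 0 and 58 past 2-fold, and their median log2 ratio went from 1.28 to 1.00. Of the 87 lower genes, 85 were below 0 and 57 past 2-fold. The cells compared here are part of those that picked these genes, so much of the agreement in sign was set in advance.

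Against the 124 other cells with Y-linked RNA alone, Ccl2, Ccl7, Cxcl2, Tnfrsf12a and Itga5 kept their direction at a smaller size. Ccl2 was at 1597 against 752 CPM (1.09, 0.98 to 1.19), Ccl7 at 745 against 285 (1.38), Cxcl2 at 222 against 95.6 (1.21), Tnfrsf12a at 263 against 109 (1.26, 0.99 to 1.54) and Itga5 at 209 against 101 (1.05, 0.75 to 1.35). Of the chemokines and cytokines, 5 of 12 compared were past 2-fold, and Il6 was not higher (28.4 against 30.4 CPM). Besides Il33 and Smad3, genes named above as 2-fold higher that were within 2-fold here were Cxcl10 (0.91), Mmp3 (0.94), Mmp19 (0.63), Vcan (0.98), Fosl1 (0.79) and Fosl2 (0.79). Cxcl13 was at 1900 against 7523 CPM (-1.99, -2.06 to -1.91), but at 1900 against 4010 CPM (-1.08, -1.17 to -0.99) when the comparison was limited to the 44 cells with Y-linked RNA that also lack Cr2, Madcam1 and Tnfsf11. Of 3539 genes in that limited comparison, 310 were at least 2-fold higher and 144 at least 2-fold lower. Against these 44 cells, Ccl2 (1.56, 1.39 to 1.73), Ccl7 (1.81), Tnfrsf12a (1.73, 1.29 to 2.18) and Itga5 (2.53, 1.92 to 3.20) stood past 2-fold higher, Cxcl2 did not (0.12, -0.21 to 0.45), Grem1 was lower (-1.31, -2.09 to -0.58), Stc1 was at -0.58 and Cyp2f2 at 1.06, the opposite sign. Itga5 was then above its 1.60 in the comparison of all cells, and Tnfrsf12a near its 1.74.

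The same gate in 2-IC replicate 1 gave 33 cells with far fewer counts. Of 3305 genes there, 82 (2.48%) were at least 2-fold higher and 111 (3.36%) at least 2-fold lower than in the other cells of that library. Of the genes 2-fold higher in 2-IC replicate 2, 43 were compared in both libraries, and 34 of them (79.1%) were above 0 in 2-IC replicate 1 and 13 past 2-fold. Of 74 lower genes, 51 (68.9%) were below 0 and 17 past 2-fold. For all 2838 genes compared in both, 49.3% were above 0. In both libraries the gate excludes cells with Cr2, Madcam1 or Tnfsf11 that the other cells include, so part of the shared direction was set by the rule. Against the 922 other cells of 2-IC replicate 1 that also lack these genes, 69 of 3213 genes were at least 2-fold higher and 59 lower. Of the 8 chemokines and cytokines past 2-fold in 2-IC replicate 2, 3 were also past it with over 3 UMIs per group and intervals above 0 in 2-IC replicate 1. Ccl2 was at 879 against 315 CPM (1.48, 1.26 to 1.69), Ccl7 at 956 against 267 (1.84, 1.63 to 2.05), and Cxcl2 at 273 against 87.7 (1.64, 1.23 to 2.02). The others were nearer to the rest: Cxcl9 was at 168 against 131 CPM (0.36), Il33 at 519 against 429 (0.27), Cxcl10 at 237 against 241 (-0.03) and Il6 at 27.3 against 28.3 (-0.05), while Lif had 4 UMIs in the gate cells. Of the 60 Cxcl2 UMIs in the gate cells of 2-IC replicate 1, 59 lay in the 17 cells with Xist alone. The 8 gate cells with Y-linked RNA alone had no Cxcl2, against 77.3 CPM in the other cells with Y-linked RNA alone. Those 8 gate cells held 141 of the 210 Ccl7 UMIs. Cxcl1, within 2-fold in 2-IC replicate 2, was at 3675 against 1140 CPM (1.69). Cxcl13 was at 2195 against 9667 CPM (-2.14, -2.27 to -2.01), and at 2195 against 3933 CPM (-0.84, -0.98 to -0.71) when limited to the 922 other cells that also lack Cr2, Madcam1 and Tnfsf11; Ccl2 (1.17), Ccl7 (1.35) and Cxcl2 (1.503) were past 2-fold higher against those cells too. Tnfrsf12a, with 10 UMIs in the gate cells, was at 45.5 against 14.5 CPM (1.65, 0.55 to 2.58). Itga5 (0.08, -2.22 to 1.67), with 3 UMIs, could not be resolved at this depth. Tnfaip6, a hyaluronan-binding protein, had a larger ratio in 2-IC replicate 2 (414 against 136 CPM, 1.60) than in 2-IC replicate 1, where the gate cells were near the others (132 against 139 CPM). Cyp2f2 went the opposite way, 301 against 109 CPM (1.46, 1.07 to 1.82). Against the 922 cells, Rnf19a (0.15), Amotl2 (0.13), Hes1 (0.08), Ebf3 (0.43), Pdcd4 (0.06), Zfhx4 (0.48) and Lifr (0.03) were not lower. Grem1 (-0.76), Usp18 (-0.44), Stc1 (-0.26), Sulf1 (-0.73) and Tsc22d1 (-0.31) were below 0 but within 2-fold. The intervals of all these genes but Cyp2f2 include 0. Of the other genes of highest ratio, Ifi27l2a was lower against the 922 cells (-0.93, -1.39 to -0.50). Ifi211 (-1.03), Gbp2 (-0.44), Rrs1 (-0.36), Timp1 (0.28), Cyp51 (0.13) and Col5a3 (0.02) had intervals that include 0. Medag (1.06) and Emp1 (0.71) were higher. Mmp3 was at 209 CPM in the gate cells and 194 CPM in all others of 2-IC replicate 1. Immediate early genes, which tissue digestion also induces, summed to 46946 CPM in the 33 gate cells of 2-IC replicate 1 and 33564 CPM in its others. In 2-IC replicate 2 their sum was lower in the gate cells. With 1 library on each side, these differences between libraries were not tested.

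**Figure D4:**
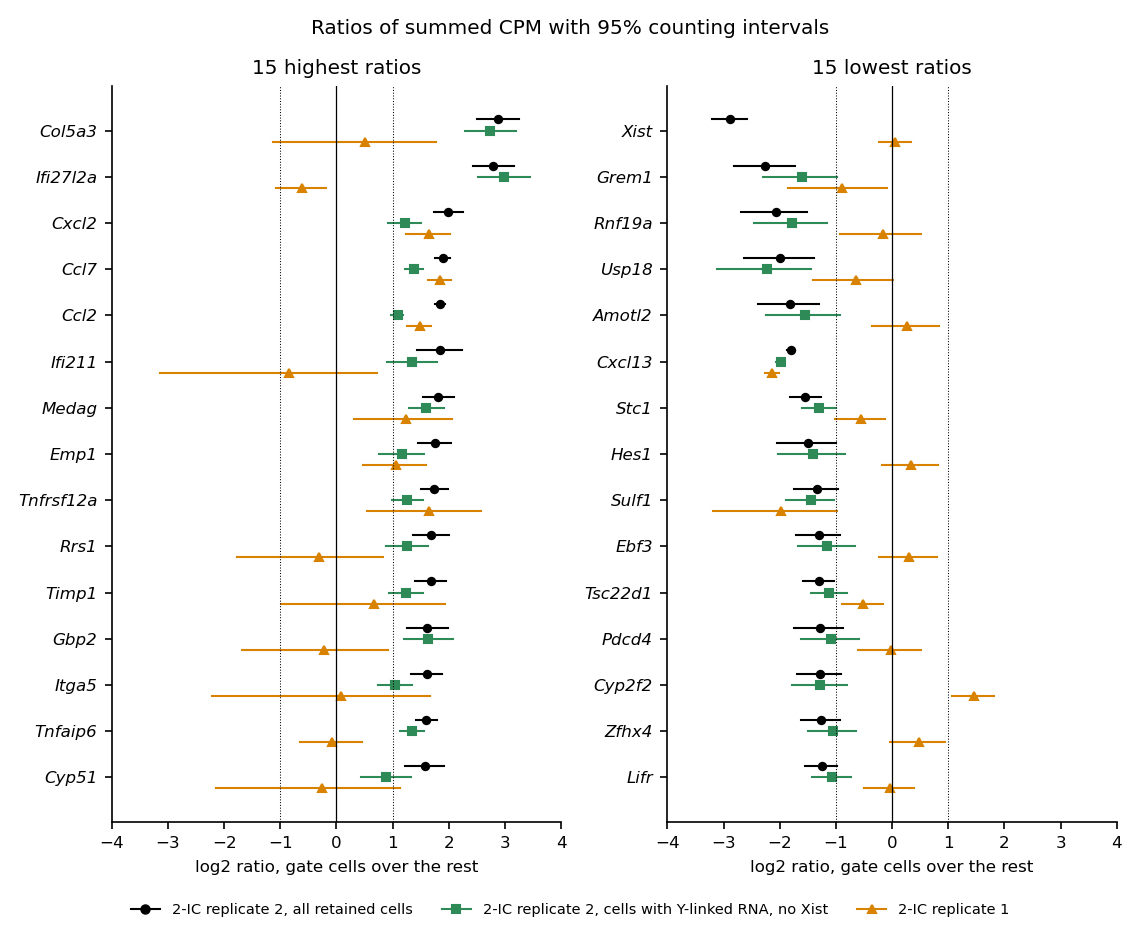
Log2 ratios of summed CPM, gate cells over the rest, for the 15 genes of highest and the 15 of lowest ratio at 100 CPM or more, with 95% counting intervals, in 2-IC replicate 2 (black), within its cells with Y-linked RNA alone (green) and in 2-IC replicate 1 (orange). Ccl2, Ccl7, Cxcl2 and Cxcl13 lie on the same side of 0 in all 3, with Cxcl13 set in part by the cells the gate excludes, and Cyp2f2 is at -1.28 in 2-IC replicate 2 and 1.46 in 2-IC replicate 1.

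The other 340 cells fell into classes by the genes used for reticular cell types. Cells with Cr2 numbered 35, those with Tnfsf11 or Madcam1 and no Cr2 151, those with Fmod and Ccl21a 33, those with Inmt 78, and 43 shallow cells, with a median of 1383 UMIs, had none of these. Tnfrsf12a was at 245 CPM in the gate cells, 93.7 CPM in cells with Tnfsf11 or Madcam1, 71.3 CPM in those with Fmod and Ccl21a, 41.4 CPM in those with Inmt and 38.4 CPM in those with Cr2. Ccl2 followed, at 1614, 599, 385, 315 and 62.4 CPM in the same order. Cxcl13 in the gate cells (1706 CPM) was below that of cells with Inmt (2560 CPM) and with Fmod and Ccl21a (2256 CPM). Ccl21a in the gate cells (6487 CPM) stood between cells with Fmod and Ccl21a (11560 CPM) and those with Inmt (801 CPM). Of the gate cells, 17 also met the Fmod and Ccl21a rule and 32 had Inmt, so the gate cut across the other rules.

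**Figure D5:**
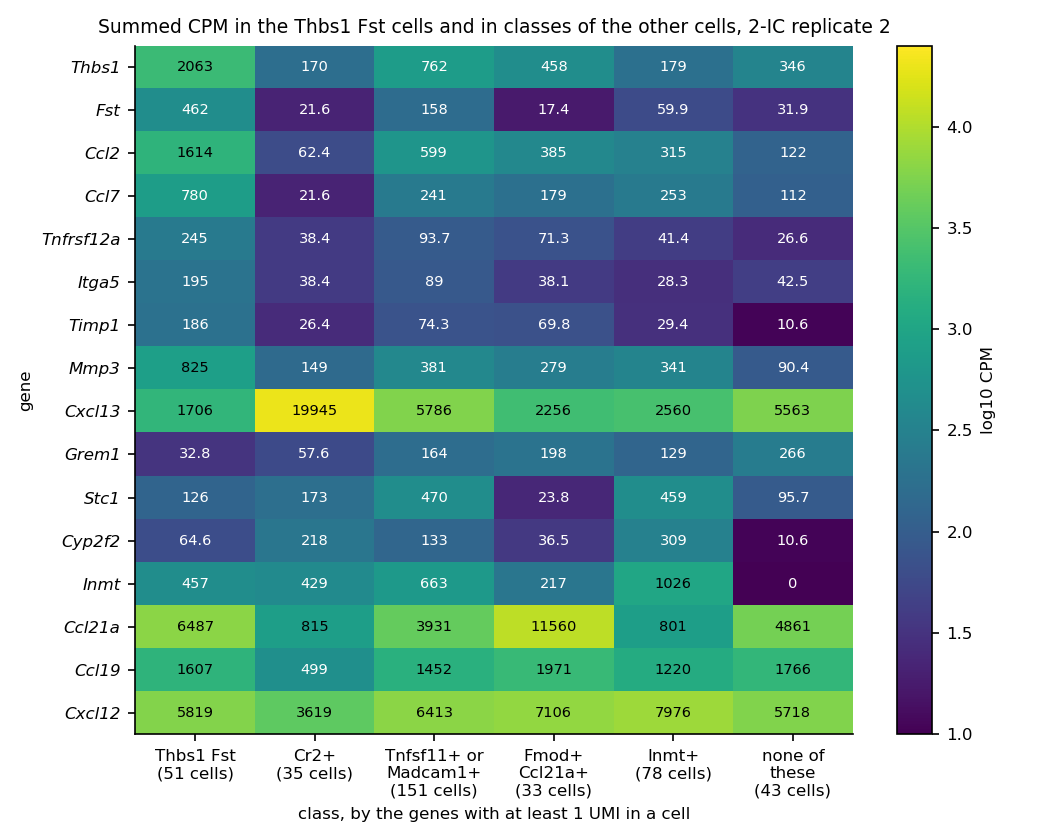
Summed CPM (printed in each field, colour on a log10 scale) of 16 genes in the 51 Thbs1 Fst cells and in 5 classes of the other retained cells of 2-IC replicate 2, each defined by genes with at least 1 UMI. Of the classes drawn, Tnfrsf12a, Itga5, Ccl2, Ccl7, Timp1 and Mmp3 are highest in the gate cells; the 50 cells with Thbs1 and Fst that also had Cr2, Madcam1 or Tnfsf11, with Itga5 at 177 CPM and Timp1 at 141 CPM, are not drawn apart. In the gate cells Cxcl13, at 1706 CPM, is lower than in the cells with Inmt, at 2560 CPM.

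The spread of the gate cells over clusters depended on the resolution. At resolution 0.5, with the gate genes left out, 41 of 51 (80.4%) lay in 1 cluster of 106 cells, of which 90 had Y-linked RNA alone. At resolution 1 there were 7 clusters, and 26 of 51 gate cells (50.98%) lay in a cluster of 65 cells led by Serpina3f, Fosl1, Hmga1, Mt2, Cxcl5 and Ccl2, of which 56 had Y-linked RNA alone. Another 9 lay in a cluster led by Meg3, Emp1 and Il6, 7 in a cluster of 29 cells led by Col5a3, Timp1, Chst1 and Fbln2, and none in the cluster led by Syt1, Ttn and Fcgr2b. Across the 48 gate cells with at least 5000 UMIs, thinned to that number, Ccl2 and Ccl7 went together (Spearman's rho 0.64), Thbs1 went with Itga5 (0.44) and Ccl2 (0.42), and Tnfrsf12a and Itga5 did not go together (-0.21). These are values of cells of 1 library and share its depth and counting noise.

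RNA of other cell types was low, in part because every retained cell was required to lack Cd3d, Trac, Ptprc, Cldn5, Egfl7 and the other filtered genes. All 8 mesothelial and all 7 T and NK cell genes were at 0 in the gate cells, and 6 of 8 endothelial genes were too (sum 5.29 against 11.6 CPM). Platelet genes, listed because platelets store thrombospondin 1, summed to 22.2 against 43.0 CPM with Itga2b the most abundant (12.7 CPM) and Ppbp, Gp9 and Gp1bb at 0. Of 10 macrophage and dendritic cell genes, Adgre1 and C1qa were at 0, Cd74 was the most abundant at 222 against 221 CPM, and the sum was 309 against 306 CPM. Within cells with Y-linked RNA, Cd74 was at 242 against 173 CPM (0.49) and H2-Aa at 61.9 against 22.8 CPM (1.44), the other gene compared; the part of free RNA or of other cells in this was not tested. B and plasma cell genes summed to 206 against 444 CPM, nearly all Igkc (176 against 385 CPM, -1.13), and Igkc did not differ within cells with Y-linked RNA (153 against 159 CPM). Ifi27l2a, at 164 against 23.7 CPM (2.79), was absent from 40 of 51 gate cells, had 54.2% of its counts in 1 cell and was found in 38.5% of the B cell barcodes of this library at equal depth. Its log2 ratio was 1.17 without shared barcodes and -0.029 with the contaminant genes not filtered. The part of free RNA in its ratio was not tested. Of 10 pericyte and smooth muscle genes, 7 were compared and none was past 2-fold (sum 2635 against 2754 CPM), with Des the most abundant at 1085 against 960 CPM and Cspg4 and Cnn1 at 0. Of 6 adipocyte genes, Adipoq, Cfd, Fabp4 and Pparg were at 0 and Lpl, also a gene of other stromal cells, was at 697 against 605 CPM.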

How the data were processed

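LN stromal cells were sequenced in 3 libraries with a Chromium single-cell 3' kit. The authors used Cell Ranger (5.0.0 per the file headers) and GRCm38, and deposited raw UMI counts, not normalized, of each gene in each barcode called as a cell. Groups followed the sample titles. Counts of genes with the same symbol were summed. CPM was the summed count of a group of cells over its summed UMIs, genes were compared at 50 CPM or more in either group, and a ratio used at least 3 counts on each side. Intervals were exact and cover counting error only; with 1 library holding the cells, no p-value was computed. Total UMIs per library ranged from 3766526 to 20607903. Doublets were called with Scrublet, which marked 3 of 1029 barcodes of 2-IC replicate 2, no gate cell among them. This share is too low to show that the caller worked. Clusters were Leiden clusters (scanpy 1.11.5, 2000 variable genes, 10 components, resolution 1) without the gate genes. The ratio and its interval were tested on simulated Poisson counts of summed groups. These had no spread between cells, so that test covers counting error only. Genes named were the 5 markers, the 15 highest and 15 lowest ratios at 100 CPM or more, and for each of 38 gene lists the 3 most abundant genes and those past 2-fold; other genes of a list were named for context after their values were seen. The gate, the lists and the rules were chosen with earlier results of these data known. Coordinates are those of GENCODE release M21.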

Additional observations from a re-analysis of the deposited data

Results flagged for a closer look

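Barcodes removed by the filters of 2-IC replicate 2 also met the Thbs1 and Fst rule, a signal in data that the comparisons above did not use. Of 638 removed barcodes, 45 (7.05%) had both genes and no Cr2, Madcam1 or Tnfsf11, a share below the 13.04% of retained cells. Their median depth was 16558 UMIs. A UMI of at least 1 of the 13 contaminant genes was present in 32 of them, most often Ly6c1 (in 15), and 17 were over the mitochondrial limit. Summed levels in these 45 barcodes were 960 CPM for Ccl2, 121 CPM for Tnfrsf12a, 163 CPM for Itga5 and 1790 CPM for Cxcl13.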

How the results depend on the processing

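The number of genes past 2-fold, 116 higher and 87 lower, depended on how cells were weighted and on the limits. With each cell thinned to 2000 UMIs, where 50 CPM is only a few counts, it was 505 higher and 287 lower, and with every cell weighted alike 209 were higher. With Cr2, Madcam1 and Tnfsf11 not required at 0, 177 were higher; at 200 CPM or more 29 were higher and 8 lower, with no minimum 548 and 1143, and at 4-fold 6 and 10. The gate held 79 cells with contaminant genes not filtered, 101 (25.8% of retained cells) with Cr2, Madcam1 and Tnfsf11 not required at 0, and 32 (9.25%) when applied after thinning. Its share was 8.95% with 2 UMIs of each gate gene required and 24.8% within cells with Y-linked RNA and no Xist, a setting added after seeing the data. At a Leiden resolution of 0.5, 80.4% of gate cells lay in 1 cluster, against 50.98% at resolution 1. Against other cells that also lack Cr2, Madcam1 and Tnfsf11, likewise added after seeing the data, 277 genes were higher. Those other cells had a median of 11239 UMIs. Over the 30 genes of highest and lowest ratio and 11 other settings, 219 of 329 log2 ratios stayed within their counting interval, 108 moved further with the same sign, and 2 changed sign: Ifi27l2a was -0.029 with contaminant genes not filtered, and Sulf1 was 0.028 against the cells that also lack Cr2, Madcam1 and Tnfsf11. This count leaves out a common scaling, which shifts every ratio alike by 0.04, and the removal of called doublets, of which none was retained. No paired analysis was possible because the cells came from 1 library. Precision was limited by depth: a gene at 50 CPM rested on about 47 counts in the gate cells, and the spread between mice was not measured.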

Other observations

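Other gene groups showed little difference between the Thbs1 Fst cells and the other cells of 2-IC replicate 2. The counts here stand beside 3.36% higher and 2.52% lower of all genes compared, shares that 1 gene exceeds in lists this short. Of 12 genes compared for hypoxia and glycolysis, 1 was 2-fold higher, Hk2 (hexokinase 2), at 217 against 77.5 CPM, with a log2 ratio of 1.49 that was 1.17 within cells with Y-linked RNA; Slc2a1, which encodes the glucose transporter GLUT1, was at 0.90 and the median of the group was 0.18. Of 10 heat shock genes, Hsph1 was 2-fold higher (1.04, and 0.83 without its leading cell) and the median was 0.48. None of 12 genes of the unfolded protein response was past 2-fold, and their median was 0.18. The proliferation genes Mki67 and Top2a were at 2.12 and 8.47 CPM in the gate cells and 5.71 and 6.56 CPM in the others, too few counts to compare. Il1r1, the receptor for IL-1, was at 785 against 393 CPM, a log2 ratio of 1.00 at the edge of the limit. Medag (1.81), expressed in mesenteric fat, and Emp1 (1.75), an epithelial membrane protein gene, were among the 15 highest ratios, and were at 1.24 and 1.05 in 2-IC replicate 1. Against the 154 other cells that also lack Cr2, Madcam1 and Tnfsf11, Medag was at 1.68 and Emp1 at 0.80 (0.48 to 1.11). Against the 44 such cells with Y-linked RNA, Emp1 was at 0.39 (-0.08 to 0.87). Rrs1 (1.68), of ribosome assembly, and Cyp51 (1.57), an enzyme of cholesterol synthesis, completed the 15 highest; they were at 1.26 and 0.89 within cells with Y-linked RNA.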
